A study of Mus musculus with 39 samples.

Results

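The Wnt ligands, receptors and antagonists were followed here across diets, doses and time in epididymal fat. Members were chosen by name, as the array genes whose symbol begins with Wnt, Fzd, Dkk or Rspo and a digit, together with Sfrp1, Sfrp2, Sfrp4, Lrp5, Lrp6, Wif1 and Axin2. This gave 44 genes of the 29411 gene names on the array, read by 60 of its 40628 probes, and a gene with several probes stood with its brightest, the one with the highest mean level over the arrays. They were 19 ligands, 4 R-spondins, 12 receptors, 8 antagonists and the target gene Axin2.

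RNA of epididymal adipose tissue of C57BL/6J mice was hybridised to 39 one-colour Agilent arrays. Mice were assigned to diets after weaning, at 3 to 4 weeks of age, in groups of 30 animals. LFC, the low fat control, drew 10% of its calories from fat and had 11 arrays, at days 1, 6, 10 and 14 and weeks 0, 3, 6, 9, 12, 15 and 18, and HFC, rich in fat and sucrose with fat giving 60% of calories, had 10, from day 6 on. KAL-1, a botanical formulation, was given on top of HFC at 5 µg (HF5), 20 µg (HF20) or 75 µg (HF75), with 6 arrays for each from week 3 to week 18, so every KAL-1 group also ate the diet rich in fat and sucrose. The paper counts weeks from day 14, so day 14 and week 0 are the same time there. They were kept here as separate time points, and a diet had 1 array at each time point. The time points of a diet therefore served as its replicates, and the p-values measure the spread between such arrays, since the labels do not say how many mice an array stands for.

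Wnt proteins are secreted lipid-modified ligands that bind Frizzled receptors and the co-receptors Lrp5 and Lrp6, and this stabilises beta-catenin, which acts with TCF factors on target genes such as Axin2. Secreted Frizzled-related proteins and Wif1 bind the ligands, Dkk proteins bind the co-receptors, and R-spondins prolong the presence of Frizzled receptors at the cell surface. In fat tissue the pathway is known for holding back the formation of adipocytes from their precursors, with Wnt10b as a classic inhibitor, while some ligands such as Wnt5a act without beta-catenin.

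Levels are given as log2 of the processed signal minus the 75th percentile of the same array, so a level of 0 is the signal at that percentile, and levels of different probes are not set against each other. A difference of 1 on this scale is a 2-fold change. A probe counted as measured on an array where the scanner software marked it as well above background. On 37 of the arrays 53.7% to 79.6% of spots were well above background and 17 to 37 of the 44 members were. Far more, 97.1%, were above it on LFC week 3, with 16431 outlier spots, and 94.5% on HFC week 12, with 10531. On each of these arrays 14 members were lost to outlier spots, and some of the differences that rest on either array are also given without both.

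The adipocyte markers were bright on every array, with Adipoq, Fabp4 and 8 others well above background on all 39 and a list median of 3.28 to 6.71. Of 8 epididymis markers, between 18 and 33 arrays had each above background, and their list median ran from -8.56 to 3.65 across the arrays. In bulk tissue, fewer cells of a type and less RNA per cell cannot be told apart. The 7 mesothelium markers stood out at week 6. Their list median was -6.89 to -4.40 on 4 of the 5 week 6 arrays, -0.07 on the HF20 week 6 array, and -3.60 to 1.38 on the other 34 arrays.

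The sequences ahead of the start of 3 members are shown because the comparisons below turn on them: Rspo1 and Wnt6, which had the smallest p at week 6, and Wnt11, with a small p over time on HFC. Each is the 250 bases before the start of transcription, from RefSeq on build GRCm38.p6, plus strand, 5′ to 3′. Capitals mark a TCF motif, that is CTTTG followed by AA, AT, TA or TT, read on either strand. The Rspo1 window is chr4:124986180-124986429, that of Wnt6 chr1:74771642-74771891 and that of Wnt11 chr7:98834862-98835111. Wnt11 has another window without a motif, and the one shown was picked because it holds a motif. Sfrp4, which had the smallest p over time on HFC, had no window.
Rspo1: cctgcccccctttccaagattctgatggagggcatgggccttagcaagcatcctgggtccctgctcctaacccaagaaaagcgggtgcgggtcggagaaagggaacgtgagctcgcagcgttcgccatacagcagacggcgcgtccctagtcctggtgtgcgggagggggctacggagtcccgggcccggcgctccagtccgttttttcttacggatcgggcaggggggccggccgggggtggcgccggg
Wnt6: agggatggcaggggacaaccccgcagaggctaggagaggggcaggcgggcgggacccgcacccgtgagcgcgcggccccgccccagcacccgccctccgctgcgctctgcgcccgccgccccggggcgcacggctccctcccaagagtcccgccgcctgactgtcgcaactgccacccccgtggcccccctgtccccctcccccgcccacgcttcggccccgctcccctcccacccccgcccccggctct
Wnt11: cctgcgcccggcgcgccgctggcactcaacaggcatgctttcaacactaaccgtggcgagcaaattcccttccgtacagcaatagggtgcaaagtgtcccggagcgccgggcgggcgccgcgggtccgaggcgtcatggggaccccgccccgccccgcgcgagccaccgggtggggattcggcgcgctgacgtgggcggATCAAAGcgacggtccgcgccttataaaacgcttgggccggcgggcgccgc
The Wnt11 window holds 1 motif, on the minus strand, 51 bases before the start. The Rspo1 and Wnt6 windows hold none, and their GC content was 66.8% and 79.6%. Over the table of promoters 14.8% of 32851 such windows hold a motif, and 4 of the 31 windows of 28 members do (12.9%), those of Dkk1 (with 2), Fzd7, Wnt5b and Wnt11. Wnt5b and Wnt11 each had a motif in 1 window and none in their others. The window of Axin2 holds none of these letters, and a match or its absence in so short a stretch is a description of the sequence only.

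A total of 31 members were well above background on at least 20 arrays. They were 11 of the 19 ligands, 2 of the 4 R-spondins, all 12 receptors, 5 of the 8 antagonists and Axin2. A further 12 were above it on 1 to 19 arrays, and Wnt16 on none. The heat map of the members on each array shows the spread around these levels.

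**Figure D1:**
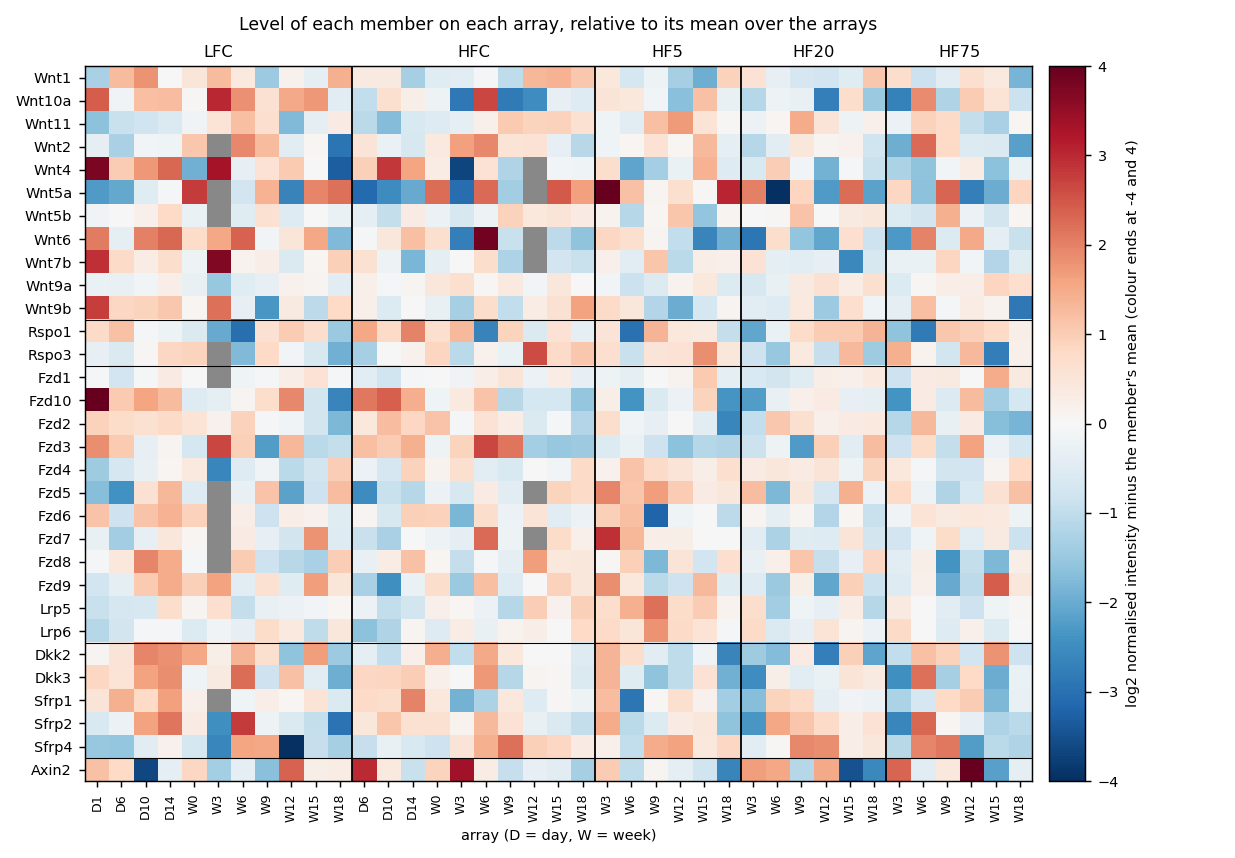
Level of each of the 31 members measured on at least 20 arrays (rows, ordered by role) on each of the 39 arrays (columns, by diet and time), as log2 normalised intensity minus that member's mean; grey squares are values lost to outlier spots. Rspo1 is low on 4 of the 5 week 6 arrays, and the grey squares lie on LFC week 3 and HFC week 12.

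Among the ligands, Wnt11 and Wnt9a were above background on all 39 arrays, Wnt2 and Wnt5b on 38 and Wnt6 on 37. Wnt9a was the steadiest of these, with an SD of 0.48 over all arrays and levels from -3.32 through a median of -1.77 to -0.97. Wnt5b ran from -2.47 through -0.87 to 0.55, Wnt11, a ligand of the branch without beta-catenin, from -3.33 through -1.52 to 0.14, and Wnt2 from -5.27 through -2.38 to -0.11. Wnt5a varied more than any other member, with an SD of 2.23, from -8.76 on HF20 week 6 through a median of -4.07 to 0.40 on HF5 week 3, and it was above background on 32 of 37 arrays with a value. Wnt6 ran from -5.93 through -3.03 to 0.82 and Wnt10a, like Wnt6 a ligand reported to restrain adipocyte formation, from -7.58 through -4.84 to -1.73, above background on 29 arrays. Wnt4 was above background on 28 arrays (median -4.87), Wnt7b on 29 (-5.13), Wnt9b on 30 (-4.86) and Wnt1 on 26 (-5.49).

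The ligand best known in adipocyte precursors, Wnt10b, was near the floor. It was above background on 12 of the 37 arrays with a value, and its level ran from -9.27 through -7.29 to -4.74. Wnt2b was above background on 19 arrays, Wnt8b on 5, Wnt3 on 3, Wnt7a on 2, and Wnt3a and Wnt8a on 1 each. For these ligands the arrays give mainly an upper limit.

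Of the R-spondins, Rspo1 was above background on all 39 arrays and ran from 0.07 through a median of 3.67 to 5.06. Rspo3 was above background on 22 arrays (median -5.61), Rspo4 on 10 and Rspo2 on 8. Among the receptors, Fzd4, Fzd2, Lrp5 and Lrp6 were above background on all 39 arrays. Fzd1 was the steadiest receptor, with an SD of 0.49 and levels from -0.04 through 0.78 to 2.28, and Fzd4 ran from 0.39 through 3.12 to 4.15. Lrp5 ran from -0.12 through 1.31 to 3.47 and Lrp6 from 1.22 through 2.89 to 4.66. Fzd5 and Fzd7 were above background wherever they had a value (37 arrays), Fzd6 and Fzd9 on 37 arrays, Fzd8 on 35, Fzd10 on 24 and Fzd3 on 22.

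Sfrp2, Sfrp4 and Dkk2 were above background on all 39 arrays and Sfrp1 on all 38 with a value. Sfrp1 ran from -2.34 through 0.67 to 2.53, Sfrp2 from -2.73 through 0.37 to 3.05 and Sfrp4 from -4.05 through 0.15 to 2.19. Dkk2 ran from -5.73 through -2.87 to -1.05 and Dkk3, which does not bind the co-receptors as the other Dkk proteins do, from -5.25 through -2.65 to -0.54. Dkk1 was above background on 17 arrays, Wif1 on 7 and Dkk4 on 2. Axin2, the readout of beta-catenin activity, was above background on 29 arrays and had a wide range, from -7.74 on LFC day 10 through a median of -4.40 to 0.09 on HF75 week 12 (SD 1.75).

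15 members had more than 1 probe, and these could differ widely in brightness. The brightest Lrp6 probe averaged 2.87 and the other -2.06, and for Sfrp1 the averages were 0.56 and -5.28. Levels therefore belong to a probe, and for several of the differences below the other probe is given too.

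The first question was how the high fat, high sucrose diet moved the members relative to LFC. In a limma fit that held each time point as its own block, 0 of 33 members tested over 10 time points passed an adjusted p of 0.05, and 0% of all 29168 probes did. At an unadjusted p under 0.05 there were 4 members, 2 higher and 2 lower on HFC, or 12.1% of those tested, where 3.05% of all probes passed (1.36% higher and 1.68% lower). The median difference was -0.03 over the members and 0.03 over all probes. Over weeks 3 to 18 alone, in the fit of all 5 diets, 0 of 35 members passed, as did 0% of 31450 probes. Again 4 members had an unadjusted p under 0.05, 2 each way (11.4%, against 2.31% of probes, 1.24% higher and 1.06% lower), and the medians were 0.12 and 0.06.

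The ligand Wnt10a had the smallest p. On LFC at weeks 3, 6, 9, 12, 15 and 18 its level was -1.73, -2.91, -4.14, -3.22, -2.99 and -5.15, above background on all 6 arrays. On HFC at the same weeks it was -7.58, -2.06, -7.56, -7.21, -5.05 and -5.24, above background on 3 of 6. HFC was thus below LFC at 5 of 6 weeks, with week 6 the exception, and the groups overlapped. The difference over these weeks was -2.42 (SE 0.70, unadjusted p 0.00218 by limma, adjusted p 1.00), and the 3 lowest HFC values were the ones not above background, so its size is uncertain. Over 10 time points it was -1.72 (SE 0.58, adjusted p 0.998), lower on HFC at 9 of 10. Without LFC week 3 and HFC week 12 these became -1.68 and -0.92.

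Sfrp4, an antagonist that is also secreted by adipocytes, lay on the other side. On LFC at weeks 3 to 18 its level was -2.63, 1.57, 1.54, -4.05, -0.93 and -1.36, and on HFC 0.50, 1.41, 2.19, 0.92, 0.82 and 0.32. HFC stayed in a narrow band (SD 0.68) while LFC spread widely (SD 2.24), and HFC was above LFC at 5 of 6 weeks. The difference was 2.0 (SE 0.68, 4.01-fold, unadjusted p 0.00720 by limma, adjusted p 1.00), and over 10 time points 1.19 (SE 0.49, adjusted p 0.998). Without LFC week 3 and HFC week 12 the values were 1.68 and 0.47, and without week 12 the latter was 0.77.

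Wnt9a was higher on HFC at 5 of 6 weeks, with a mean of -1.57 ± 0.30 (SD, n = 6) against -2.22 ± 0.60 on LFC (SD, n = 6), a difference of 0.65 (SE 0.26, adjusted p 1.00 by limma). Its smallest LFC value, -3.32, was the week 3 array. Without week 3 the difference was 0.35, without LFC week 3 and HFC week 12 it was 0.63, and with normexp background correction it was -0.09. Wnt7b differed by -1.19 over 10 time points (SE 0.40, lower on HFC at 8 of 9, adjusted p 0.998). Here too the highest LFC value of the 10 time points, -1.28, came from week 3. Without LFC week 3 and HFC week 12 the difference was -0.87, with normexp background correction -0.73 and in the deposited table -0.58.

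Markers of epididymis and mesothelium were read beside these differences, and their list medians overlapped between the diets. Over 10 time points the epididymis list median ran from -7.53 to 3.65 on LFC and from -8.56 to -3.78 on HFC. On LFC at days 10 and 14 and weeks 3 and 9 it was 1.94, 0.95, 0.56 and 3.65, above every HFC array. The other LFC arrays lay within the HFC range. All 6 epididymis markers tested had a negative difference, with Cst11 at -3.89 and Lcn9 at -2.54. Of the 7 mesothelium markers 6 had a positive one, with Msln at 1.14, and their list median ran from -4.40 to 1.14 on LFC and from -5.38 to 1.38 on HFC. The adjusted p of these 13 markers was 0.998 by limma, and their part in the differences of the members was not tested.

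Axin2 had a mean level of -3.98 ± 1.68 for HFC (SD, n = 6) against -4.17 ± 1.44 for LFC (SD, n = 6) over weeks 3 to 18, a difference of 0.19 with an SE of 0.80 (adjusted p 1.00 by limma). HFC was above LFC at 3 of 6 weeks. It was above by the most at week 3 (4.70) and below by the most at week 12 (-2.68), the weeks of the arrays with many outlier spots. Over 10 time points the difference was 0.69 (SE 0.65, adjusted p 0.998). Sfrp1 differed by -0.20 over 10 time points (SE 0.21) and -0.48 over weeks 3 to 18 (SE 0.59), and Wnt10b, near the floor, by 0.24 over weeks 3 to 18 (SE 0.67), with adjusted p of 0.998, 1.00 and 1.00 by limma. The SE of Axin2 was about as large as the difference over 10 time points and larger over weeks 3 to 18.

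The second question was whether KAL-1 at 5, 20 or 75 µg moved the members within the high fat diet. HF5, HF20 and HF75 were each compared with the same 6 HFC arrays of weeks 3 to 18, so the comparisons share their controls. By limma 0 of 35 members passed an adjusted p of 0.05 for any dose, for the mean of the doses or for HF75 against HF5, as did 0% of the 31450 probes in each. At an unadjusted p under 0.05 there was 1 member for HF5, higher (2.86%, against 3.42% of probes, 1.13% higher and 2.30% lower). For HF20 there was 1, lower (2.86%, against 4.84% of probes, 1.52% higher and 3.32% lower), and for HF75 there was 1, lower (2.86%, against 1.50% of probes, 0.264% higher and 1.24% lower). There were 0 for the mean of the doses (against 1.75% of probes, 0.130% higher and 1.62% lower) and 2 for HF75 against HF5, both lower (5.71%, against 5.81% of probes, 2.67% higher and 3.14% lower). The shares were thus near those of all probes. The median difference over the members was -0.18, -0.23 and -0.29 for HF5, HF20 and HF75, and over all probes -0.03, -0.07 and -0.01.

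The co-receptor Lrp5 had the smallest p for HF5. Its HF5 levels at weeks 3, 6, 9, 12, 15 and 18 were 1.97, 2.71, 3.47, 2.0, 2.31 and 1.43. On HFC they were 1.35, 1.03, 0.15, 2.27, 1.44 and 2.22, and on HF75 1.64, 1.31, 0.85, 0.44, 1.12 and 1.33. HF5 was above HFC at 4 of 6 weeks and above HF75 at all 6, and HF5 and HF75 overlapped between 1.43 and 1.64. The difference was 0.91 for HF5 against HFC (SE 0.40, adjusted p 0.954 by limma) and -1.20 for HF75 against HF5 (SE 0.40, a 2.30-fold lower level, unadjusted p 0.00590, adjusted p 0.836). The other Lrp5 probe gave 0.83 (SE 0.41) and -0.81 (SE 0.41). Without week 9 the difference of HF5 from HFC was 0.42.

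The partner co-receptor Lrp6 was second for HF75 against HF5. Its levels on HF5 were 3.63, 3.36, 4.66, 3.65, 3.43 and 2.83, and on HF75 3.63, 2.84, 2.35, 3.06, 2.31 and 2.90. HF75 was lower at 4 of 6 weeks, by 0.74 on average (difference -0.74, SE 0.30, adjusted p 0.842 by limma), and the other probe gave -0.54 (SE 0.38). For both co-receptors the highest HF5 value was week 9, the array with the lowest share of spots above background (53.7%). Without week 9 the difference of HF75 from HF5 was -0.92 for Lrp5 and -0.43 for Lrp6.

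**Figure D2:**
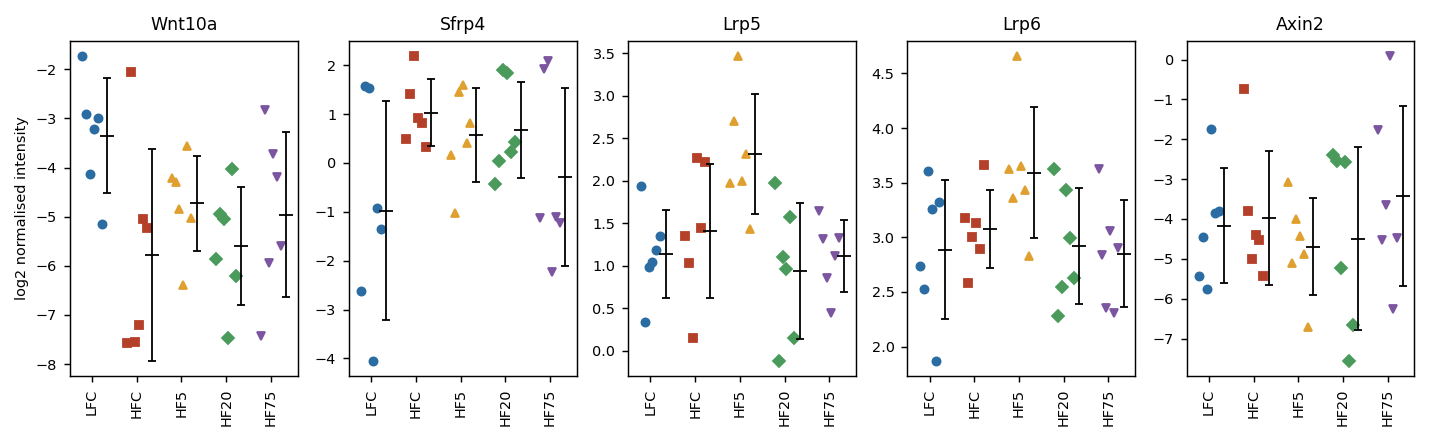
Log2 normalised intensity (vertical axes) of Wnt10a, Sfrp4, Lrp5, Lrp6 and Axin2 on the arrays of weeks 3 to 18 in the 5 diet groups; points are single arrays and the black bars beside them the mean ± SD over 6 weeks. Wnt10a was lower on HFC than on LFC at 5 of 6 weeks and Lrp5 lower on HF75 than on HF5 at all 6, while the groups overlapped in every panel.

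Other members with a small p were spread over the roles. The antagonist Dkk2 differed by -1.18 on HF20 against HFC (SE 0.50, lower at 5 of 6 weeks, adjusted p 0.780 by limma), and its other probe by -1.03. Its HF20 levels were -4.40, -4.71, -2.67, -5.73, -2.03 and -5.10 and its HFC levels -3.98, -1.49, -2.58, -3.00, -3.01 and -3.52. The groups overlapped, and without week 6 the difference was -0.77. The receptor Fzd7 differed by -0.93 on HF20 (SE 0.53, lower at 5 of 5 weeks), while its other probe gave -0.21. The Fzd7 difference rested largely on week 6, where HFC was 0.75 and HF20 -2.79. Without week 6 it was -0.31 (SE 0.56). Rspo3 differed by -1.05 on HF20 (SE 0.67). Over all 6 weeks Fzd7 and Rspo3 each had an adjusted p of 0.780 by limma. The highest HFC value of Rspo3 in these weeks, -3.16, was the week 12 array.

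On HF5, the receptor Fzd5 differed from HFC by 1.09 (SE 0.57), where its other probe gave 0.01, and Wnt9a by -0.50 (SE 0.26), each with an adjusted p of 0.954 by limma. On HF75, Fzd8 averaged -4.97 ± 1.09 (SD, n = 6) against -3.94 ± 0.90 on HFC (SD, n = 6), a difference of -1.03 (SE 0.48, lower at 4 of 6 weeks, adjusted p 1.00 by limma). The highest HFC value of Fzd8, -2.45, was the week 12 array. Sfrp4 was lower on HF75 than on HFC at 5 of 6 weeks (difference -1.31, SE 0.68, adjusted p 1.00 by limma), with HF75 levels of -1.13, 1.92, 2.08, -2.24, -1.10 and -1.22. The HF75 levels of Sfrp4 thus fell into high values at weeks 6 and 9 and low values at the other weeks, as the LFC levels did. Wnt2 differed by -0.90 on HF75 (SE 0.53, adjusted p 1.00). Fzd7 on HF75 against HF5 differed by -0.99 (SE 0.50, adjusted p 0.856 by limma), and by -0.67 on the other probe.

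For the mean of the doses the smallest p were those of Wnt2 (-0.67, SE 0.43), Wnt1 (-0.66, SE 0.43) and Rspo2 (-0.85, SE 0.61), with an adjusted p of 1.00 each by limma. Rspo2 was above background on 3 of the 18 KAL-1 arrays. Axin2 differed from HFC by -0.72 on HF5, -0.51 on HF20 and 0.55 on HF75, each with an SE of 0.80, by -0.23 for the mean of the doses (SE 0.65) and by 1.27 on HF75 against HF5 (SE 0.80). Its adjusted p lay between 0.862 and 1.00 by limma over these 5 comparisons. The Axin2 levels of HF75 alone ran from -6.25 to 0.09, wider than any of the differences.

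Sfrp1 differed from HFC by 0.21, 0.44 and 0.19 on HF5, HF20 and HF75 (SE 0.56 each), by 0.28 for the mean of the doses (SE 0.46) and by -0.01 on HF75 against HF5 (SE 0.56). For Wnt10b these values were -0.32, 0.67 and -0.07 (SE 0.64 each), 0.09 (SE 0.53) and 0.25 (SE 0.60). By limma the adjusted p was between 0.797 and 1.00 for both genes. Wnt10b was above background on 0 of 6 arrays of HF5, 5 of 6 of HF20, 1 of 6 of HF75 and 3 of the 5 of HFC with a value. All its HF5 values were below background, so that level is a bound.

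The third question was how the members moved between the early arrays (to week 0) and the late ones (weeks 3 to 18). Each time point was scanned on dates of its own, so time and scan cannot be told apart. On HFC, by limma, 0 of 35 members passed an adjusted p of 0.05, as did 0% of 30581 probes. Before adjustment 8 members had a p under 0.05 (4 higher and 4 lower late, 22.9%), where 16.8% of all probes did (8.05% higher and 8.80% lower). The medians were 0.01 over the members and 0.03 over all probes. On LFC 0 of 34 members passed, where 0.490% of 30418 probes did. There were 2 members with an unadjusted p under 0.05, both lower late (5.88%, against 5.52% of probes, 2.14% higher and 3.38% lower), and the medians were -0.23 and -0.09.

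Sfrp4 had the smallest p on HFC. Its levels at days 6, 10 and 14 and week 0 were -0.94, -0.31, -0.64 and -0.84, and at weeks 3 to 18 they were 0.50, 1.41, 2.19, 0.92, 0.82 and 0.32. The peak of the late arrays was week 9. The difference was 1.71 (SE 0.37, 3.27-fold, unadjusted p 0.000733 by limma, adjusted p 0.210).

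The ligand Wnt11 had a difference of the same sign. Its early HFC levels were -2.66, -3.32, -2.18 and -2.10 and its late ones -1.94, -1.37, -0.51, -0.67, -0.65 and -0.97. The difference was 1.55 (SE 0.36, 2.93-fold, unadjusted p 0.00133 by limma, adjusted p 0.210). On LFC Wnt11 averaged -2.38 early and -1.46 late, a difference of 0.92 (SE 0.51, adjusted p 0.929 by limma), higher at 5 of 6 late time points and with overlap. The change of its HFC minus LFC difference was 0.83 (SE 0.68, adjusted p 0.863), so a rise particular to HFC was not shown.

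Sfrp1, which is known to be made by adipocytes and to favour their formation, lay the other way. On HFC it was 1.33, 1.26, 2.53 and 0.99 early and -1.34, -0.70, 0.97, 0.05, 0.59 and 0.36 late. The lowest early value was 0.99 and the highest late value 0.97. The difference was -1.54 (SE 0.48, 2.91-fold, unadjusted p 0.00868 by limma, adjusted p 0.227), and -2.11 (SE 0.63, adjusted p 0.224) on the other probe. On LFC Sfrp1 was 1.06, 1.99, 1.37, 2.20 and 0.76 early and 0.38, 0.82, 0.63, 1.1 and -0.02 late, with no value at week 3. The LFC groups overlapped, and the difference was -0.90 (SE 0.39, unadjusted p 0.0415 by limma, adjusted p 0.880).

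**Figure D3:**
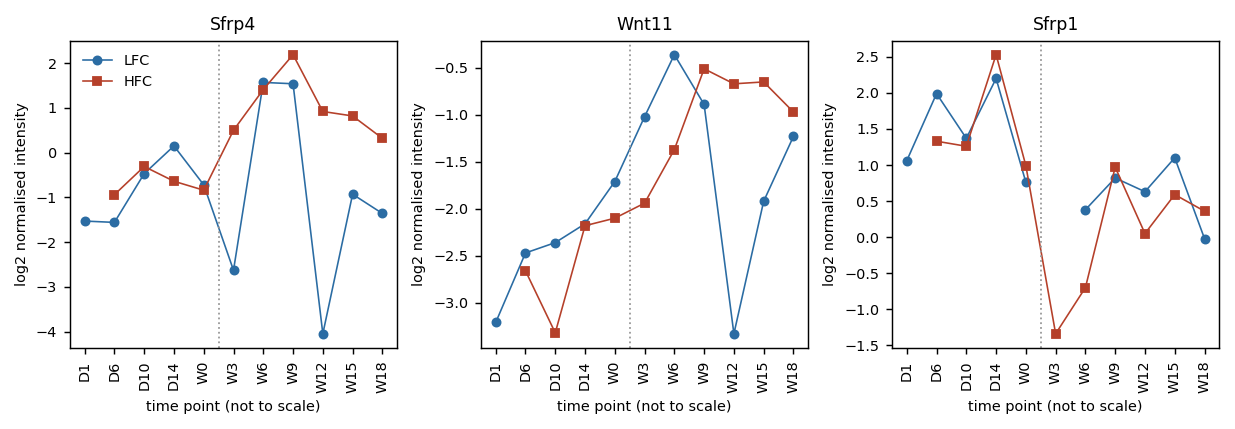
Log2 normalised intensity (vertical axes) of Sfrp4, Wnt11 and Sfrp1 on LFC (circles) and HFC (squares) at each time point, 1 array each; the dotted line parts the early from the late arrays and time points are evenly spaced. These genes had the smallest p of the members for late against early on HFC, so a gap between the HFC groups is favoured by the choice. The share of all probes with such a gap was not counted. The LFC levels of Sfrp4 and Wnt11 dipped to -4.05 and -3.33 at week 12.

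A further 5 members had an unadjusted p under 0.05 on HFC by limma, with adjusted p of 0.229 to 0.253. The receptors Fzd10 and Fzd2 differed by -1.87 (SE 0.62) and -1.08 (SE 0.36) and the ligand Wnt4 by -2.34 (SE 0.84). Among the late arrays, Fzd10 was not above background at weeks 9, 12 and 18, nor Wnt4 at weeks 3 and 9. The sizes for Fzd10 and Wnt4 are therefore uncertain. Lrp6 and Fzd5 differed by 1.02 (SE 0.36) and 1.38 (SE 0.51). The other probes of Fzd10, Fzd2, Lrp6 and Fzd5 gave -0.08 (SE 0.44), -0.59, 0.77 and 0.62, so the difference of Fzd10 was seen on its brightest probe alone. The late arrays lay on the named side of the early mean at every time point with a value for each of these 5. The 5 were picked by their p on the same arrays, so this follows largely from the choice and adds no support.

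On LFC, Fzd2 was -0.72, -0.91, -1.05, -0.88 and -1.10 early and -1.47, -0.72, -1.74, -1.78, -2.38 and -3.45 late. The early arrays lay close together (SD 0.15) and the late ones spread downward, with week 6 among the early values. The difference was -0.99 (SE 0.44, adjusted p 0.881 by limma), and -1.36 (SE 0.52) on the other probe. Fzd10 differed by -1.81 (SE 0.93, adjusted p 0.928), with 2 of 6 late arrays above background, and by -1.15 (SE 0.76) on its other probe. Axin2 differed by 0.16 on LFC (SE 0.91, adjusted p 0.986) and -0.75 on HFC (SE 0.94, adjusted p 0.671), and Wnt10b by 0.90 on HFC (SE 0.70, adjusted p 0.495).

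Whether the diet difference itself changed from early to late was tested on the HFC minus LFC differences of 10 time points. By limma 0 of 33 members passed, as did 0% of 29168 probes. There were 3 members with an unadjusted p under 0.05, each with a larger HFC minus LFC difference late (9.09%, against 5.14% of probes, 3.67% higher and 1.47% lower). The medians were 0.51 over the members and 0.15 over all probes, and 22 of 33 members were on the higher side. The 3 members were Wnt5b (1.01, SE 0.38), Rspo3 (1.99, SE 0.76) and Sfrp4 (2.04, SE 0.86), with an adjusted p of 0.841 each. The other Wnt5b probe gave 0.87 (SE 0.45), and Rspo3 was 0.31 with normexp background correction and 0.57 in the deposited table. The HFC minus LFC differences of Sfrp4 were 0.62, 0.16, -0.79 and -0.12 early and 3.13, -0.16, 0.65, 4.97, 1.75 and 1.68 late. The largest late values came from weeks 3 and 12, and without LFC week 3 and HFC week 12 the change was 1.01. For Axin2 it was -1.26 (SE 1.33, adjusted p 0.90 by limma) and for Sfrp1 -0.28 (SE 0.43, adjusted p 0.931).

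The last comparison set the 5 arrays of week 6, 1 per diet, against the 25 arrays of the other weeks from 3 to 18. By limma with diet as a term and week as a random block, 0 of 35 members passed an adjusted p of 0.05, where 0.114% of 31450 probes did. Before adjustment 7 members had a p under 0.05 (6 higher and 1 lower at week 6, 20.0%), where 6.16% of all probes did (3.75% higher and 2.41% lower). Rspo2, among the 6, met the minimum of arrays above background only through week 6. The medians were 0.08 over the members and -0.02 over all probes.

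Rspo1, which amplifies Wnt signals at the receptor, had the smallest p. At week 6 it was 0.07 on LFC, 0.43 on HFC, 0.09 on HF5, 0.27 on HF75 and 2.83 on HF20. On the other 25 arrays of weeks 3 to 18 it ran from 1.00 through a median of 3.69 to 4.46. Apart from HF20, each week 6 array was thus below every other array of the series, the lowest of which was 1.00, and all were still above background. The difference was -2.58 (SE 0.67, 5.99-fold, unadjusted p 0.000617 by limma, adjusted p 0.178). Without all HF20 arrays of weeks 3 to 18 it was -3.06 (SE 0.61, adjusted p 0.0195 by limma). Rspo1 was the only member to pass in that fit, where 0.333% of probes passed. That fit leaves out the week 6 array that stood apart, at 2.83. Without LFC, HFC, HF5 or HF75 the Rspo1 difference was -2.53, -2.47, -2.39 and -2.45, with adjusted p of 0.211, 0.998, 0.300 and 0.442. Without LFC week 3 and HFC week 12 it was -2.70 (adjusted p 0.244). At week 6 the title of the HF20 array alone has a number after its letter R, a mark that the labels do not define.

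Rspo1 was low together with the mesothelium markers. The 8 arrays with the lowest Rspo1 (at most 1.61, the others at least 2.12) were also the 8 with the lowest mesothelium median (at most -1.13, the others at least -0.81), a cut of 8 chosen after the values were seen. Besides the 4 of week 6 they were LFC, HF20 and HF75 at week 3 and LFC at week 18. At week 6, 5 of the 7 mesothelium markers (Msln, Upk3b, Upk1b, Lrrn4 and Wt1) differed by -5.80 to -3.81, and Msln (adjusted p 0.0406) and Wt1 (adjusted p 0.00239) passed by limma. Krt19 and Krt8, which other epithelia also carry, differed by -0.99 and -1.45 (adjusted p 0.940 and 0.921). Msln was above background on all 5 week 6 arrays, Wt1 on 3, and Upk3b, Upk1b and Lrrn4 on 1. Wt1 averaged -5.31 at week 6 and 0.49 on the other weeks, and Upk3b -6.26 and -0.80. The part of mesothelium in the Rspo1 result was not tested.

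Depot genes were read beside it, and none of the 7 tested passed at week 6 by limma. Among the genes of visceral fat, Tcf21 differed by -3.90 (SE 0.90, adjusted p 0.102), Hoxa5 by -1.58 (adjusted p 0.209), Gata6 by -0.20 and Gata4 by 0.47. Among those of subcutaneous fat, Tbx15 differed by 3.99 (SE 1.31, adjusted p 0.402), Hoxc10 by 1.93 (adjusted p 0.847) and Hoxc9 by 0.18. Tbx15 was above background on 4 of the 5 week 6 arrays and 6 of the 25 of the other weeks, so its size is uncertain. The subcutaneous list median was -3.00 to -2.38 on the 4 week 6 arrays without HF20, -8.84 on HF20 week 6, and -8.76 to -1.81 on the other weeks, where the 2 highest values were LFC week 3 and HFC week 12. The visceral list median was -6.68 to -3.25 at week 6 and -3.91 to -0.37 on the other weeks. The adipocyte list median was 3.28 to 5.74 at week 6 and 3.79 to 6.71 on the other weeks.

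Wnt6 lay in the opposite direction to Rspo1. At week 6 it was -0.67 on LFC, 0.82 on HFC, -2.41 on HF5, -2.35 on HF20 and -1.06 on HF75, above background on all 5 arrays. On the other weeks it ran from -5.93 through a median of -3.93 to -1.49. LFC, HFC and HF75 were above every other array of weeks 3 to 18, and HF5 and HF20 were within their range. The difference was 2.68 (SE 0.83, 6.39-fold, unadjusted p 0.00342 by limma, adjusted p 0.368).

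The antagonist Sfrp2 was 3.05 on LFC, 1.53 on HFC, 1.79 on HF20 and 2.52 on HF75 at week 6, and -0.83 on HF5. On the other weeks it ran from -2.73 through -0.08 to 1.72. It differed by 1.89 (SE 0.78, 3.70-fold, higher in 4 of 5 diets, adjusted p 0.658 by limma). The other members with an unadjusted p under 0.05 were Fzd2 (1.19, SE 0.50), Dkk3 (1.71, SE 0.74), Rspo2 (1.83, SE 0.84) and Wnt10a (1.77, SE 0.82). Their adjusted p lay between 0.674 and 0.771, and the other Fzd2 probe gave 1.05. Sfrp1 differed by -0.65 (SE 0.65, adjusted p 0.943), Wnt10b by 0.52 (SE 0.70, adjusted p 0.954) and Axin2 by 0.08 (SE 1.05, adjusted p 0.993).

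**Figure D4:**
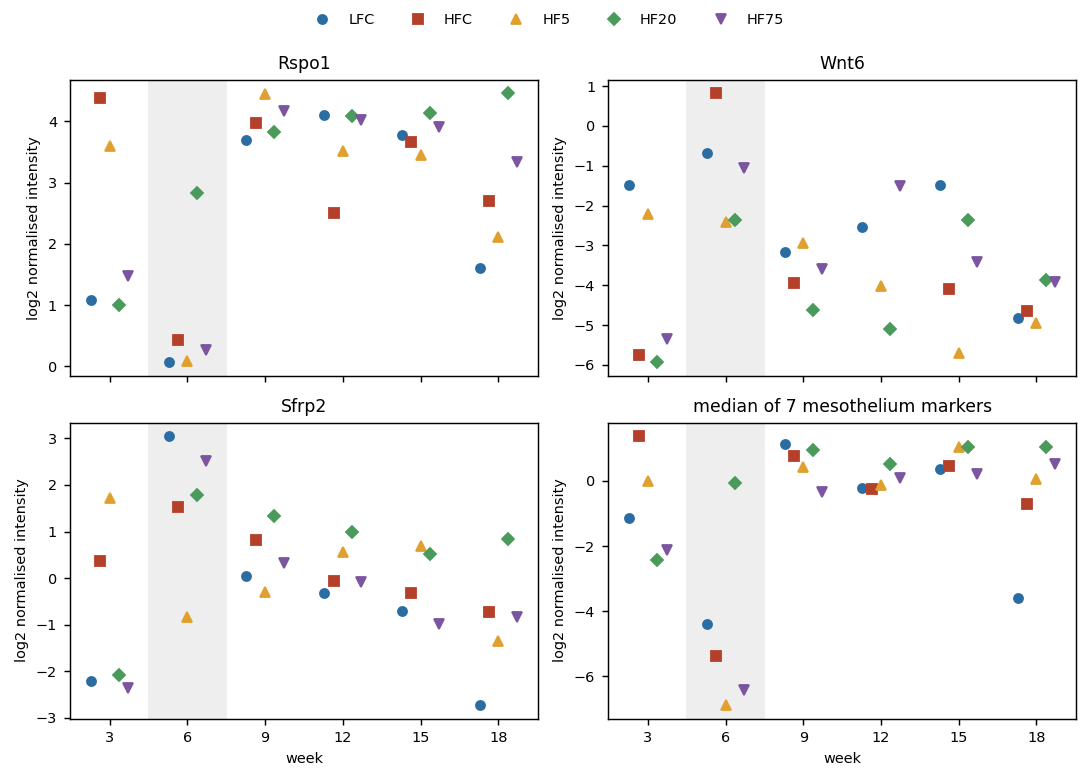
Log2 normalised intensity (vertical axes) of Rspo1, Wnt6 and Sfrp2 and the median of 7 mesothelium markers, by week (horizontal axis) and diet (symbols), 1 array per point, with week 6 shaded. Rspo1 and the mesothelium median are low on 4 of the 5 week 6 arrays and on some arrays of weeks 3 and 18, and HF20 (diamonds) stays at 2.83 and -0.07 at week 6.

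Other genes of the pathway were read from a list of 45 genes on the array for intracellular signal transmission, secretion and surface partners, other inhibitors and target genes. By limma 0 of the 41 to 43 tested passed an adjusted p of 0.05 in any of the 11 comparisons. At an unadjusted p under 0.05 the number was 0 of 41 for HFC against LFC over 10 time points, where 3.05% of all probes passed. It was 2 of 42 over weeks 3 to 18 (4.76%, against 2.31% of probes). In the comparisons of doses it was 0 to 3 of 42 (at most 7.14%, where 1.50% to 5.81% of probes passed). It was 7 of 42 for late against early on HFC (2 higher and 5 lower, 16.7%, as against 16.8% of all probes). On LFC it was 3 of 43, all lower (6.98%, against 5.52% of probes, 2.14% higher and 3.38% lower). For the change of the diet difference it was 2 of 41, both higher (4.88%, against 5.14% of probes, 3.67% higher and 1.47% lower). At week 6 it was 7 of 42, 6 higher and 1 lower (16.7%, where 6.16% of all probes passed). The median difference of the list was 0.00 late against early on HFC and 0.09 at week 6, where all probes had 0.03 and -0.02.

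The target genes of the list gave no single direction over time on HFC. Sp5, a TCF target, differed by -3.58 late against early (SE 0.87, adjusted p 0.210 by limma) and Myc by 2.36 (SE 0.91, adjusted p 0.257), beside the -0.75 of Axin2. Over all diets Sp5 was above background on 1 of the 5 week 6 arrays and 11 of the 25 other late arrays, so its size is uncertain. At week 6 the largest differences were those of Sostdc1, a secreted inhibitor (5.14, SE 1.13, adjusted p 0.0691), Lgr5, an R-spondin receptor (2.89, SE 0.97, adjusted p 0.432), and Lef1, a TCF factor (2.86, SE 0.88, adjusted p 0.367). Of the 25 arrays of the other weeks, Sostdc1 was above background on 9, Lgr5 on 8 and Lef1 on 18, so these sizes are uncertain. Ccn5, a Wnt-induced secreted protein, differed by 2.12 (SE 0.66, adjusted p 0.368). Tspan12, a Fzd4 partner, was the gene on the lower side (-1.17, SE 0.49, adjusted p 0.680).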

How the data were processed

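The scanner files hold intensity values made, per the file headers, by Agilent Feature Extraction 10.5.1.1 on annotation of build mm9, with the background and spatial trends of the array removed. The submitters' processing notes name version 9.1. The table deposited by the authors, made in GeneSpring, gives log2 values relative to LFC at each time point and served as an alternative. Outlier spots were set to missing, spots of a probe averaged, and log2 processed signal scaled to the array's 75th percentile.

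Tests covered probes well above background on a minimum of 10 of 20 arrays (HFC against LFC), 6 of 30 (weeks 3 to 18, doses and week 6), 5 of 11 (LFC) or 4 of 10 (HFC). Differences were fitted with limma 3.58.1 in R 4.3.3, two-sided, with Benjamini-Hochberg adjustment over all probes tested and a threshold of 0.05. Time point was a fixed block for diets. For week 6, week was a random block (consensus correlation 0.155). Precision is limited by how few arrays each group had. The members, lists and tests were chosen with earlier results of these data known. Named in each comparison were members past the threshold, or otherwise the 3 with the smallest p, and Axin2, Wnt10b and Sfrp1 where tested. Members outside this rule with an unadjusted p under 0.05, and the pathway and marker genes named, were picked after their values were seen. All 44 symbols matched the RefSeq table and 28 had a promoter in it. The methods' t-test needs replicates within a time point, so a plain t-test on paired differences stood in as an alternative. The fits were tested on simulated data. Tables were handled with data.table, statmod, pandas 2.3.3, numpy 2.4.6 and matplotlib 3.10.9.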

Additional observations from a re-analysis of the deposited data

Results flagged for a closer look

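The screen covered HFC, HF5, HF20, HF75 and week 6, for the members measured on at least 20 arrays. LFC and the other weeks as groups were not screened. In 7 of the 155 sets of a member and such a group, 1 array stood far from the others, and chance alone gives about 1 in 20 (8 sets). On HF20 week 6, Rspo1 was 2.83 where the next week 6 array was 0.43, and Dkk2 was -4.71 where the next was -2.29. On HF20 week 3, Dkk3 was -5.25 (next HF20 array -3.22), Sfrp2 -2.08 (next 0.51) and Fzd10, not above background, -7.75 (next -5.88). On HF5, Fzd1 was 1.85 at week 15 (next 0.93) and Fzd2 -4.26 at week 18 (next -2.07). The HF20 week 6 array was also the one of that week with the mesothelium median at -0.07, where the other 4 had -6.89 to -4.40. No cause was tested.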

How the results depend on the processing

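The count of members past an adjusted p of 0.05 was recomputed for 11 comparisons under 234 combinations of comparison and setting, and it was 0 in 227 of them. Late against early on HFC gave 10 members with array weights (Fzd10, Fzd5, Fzd7, Fzd9, Lrp6, Sfrp1, Sfrp4, Wnt11, Wnt4 and Wnt5a, where 25.9% of probes passed) and 2 with a linear trend over log2 days (Fzd10 and Wnt11, 1.26% of probes). Week 6 gave 9 with array weights (13.9% of probes), 2 with no week block (Rspo1 and Wnt6, 1.41% of probes), and 0 or 1 when 1 diet or week was left out. Rspo1 passed without HF20 (adjusted p 0.0195, with 0.333% of probes) and without week 3 (adjusted p 0.0362, with 0.108% of probes). In the other fits that left out a diet or a week, its adjusted p was 0.211 to 0.998 by limma. Rspo1 and Wnt6, 2 members, passed without both HF20 and the week block (0.962% of probes), an alternative chosen after seeing the data. The cause was not tested. Of the 61 named differences, 69 of 1254 values under other settings had another sign, none of them past the threshold. With normexp background correction Wnt6 at week 6 was 1.16 and the Rspo1 difference -2.31 (adjusted p 0.872).

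Scan date as a random block was not run, because in the fits over time within LFC or within HFC no scan held more than 1 array. LFC week 3 was scanned on another date than the other arrays of week 3. HF20 and HF75 of week 6 were scanned apart from the other diets of that week. Time point was the block in the comparisons of diets, and the R marks in some titles, which are not defined, were not used to pair arrays. Signal over background limits Wnt10b, Axin2 and the other members measured on fewer than 30 arrays. With 1 array per diet and time point, the spread between mice was not measured.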
